A study of Mus musculus with 43 samples.

Results

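The replication-dependent core histone genes were taken from a RefSeq table of mouse protein-coding genes (GRCm38.p6, the assembly behind mm10) as those whose current symbol is H2ac, H2bc, H3c or H4c followed by a number. The rule found 57 genes of the 21523 protein-coding genes used, 17 for H2A, 16 for H2B, 12 for H3 and 12 for H4. No gene in the table still carried one of the older Hist symbols as its current name. EKLF, the product of Klf1, is an erythroid zinc-finger transcription factor, and its binding was mapped by chromatin immunoprecipitation with sequencing (ChIP-seq) in mouse fetal liver dissected at stage E13.5. Embryos carried the Nan allele on one copy of Klf1 (Nan/+) or on none (labelled Nan strain WT), and were littermates. Nan changes a residue in one of the zinc fingers of EKLF, and Nan/+ livers keep 1 WT allele, so that a Nan/+ region may come from either form of the protein; the 2 forms were not told apart. The labels name the antibody 7B2a anti-eklf and the cells primary erythroid, although livers were dispersed whole, with no sort in the protocol. Each genotype was represented by 1 list of EKLF regions made from 3 ChIP libraries against input libraries, with 86257825 ± 14372012 tags per Nan/+ library and 87680192 ± 14613072 per WT library (SD, n = 3 each), per the file headers. With 1 list per genotype and no strength or replicate value per region, no spread between replicates could be computed, and no difference below was tested between genotypes. A region absent from a list may lie just under its threshold. The Nan/+ list held 15564 regions and the WT list 9181, and the minimum width was 176 bp in the Nan/+ list and 126 bp in the WT list, since they were called with different settings. As a check of the tissue label, all 7 erythroid genes reported, Slc4a1, Alas2, Hbb-bs, Hbb-bt, Hba-a1, Epb42 and Tfrc, had a region in both lists, against 2 of 8 hepatoblast genes in each list (Afp, with 7 regions in Nan/+ and 2 in WT, and Hnf4a, with 1 in each). Over all protein-coding genes the shares were 29.0% in Nan/+ and 26.9% in WT, so the hepatoblast count was near the background. Binding positions do not measure the share of each cell type.

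Core histones H2A, H2B, H3 and H4 form the protein spool of the nucleosome, and their replication-dependent genes supply the bulk of them while DNA is copied in S phase. These genes are short, mostly without introns, and lie packed in clusters, many of them as head-to-head pairs of an H2A and an H2B gene that share the stretch between their starts. Their transcripts typically end in a stem-loop in place of a poly(A) tail. Erythroblasts of the fetal liver divide rapidly before they condense their chromatin and expel the nucleus, so that histone supply and removal are both part of red cell formation.

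EKLF regions were found at most core histone genes in both genotypes. A region was assigned to a gene when its centre lay in the gene body or within 1 kb of either end. By that rule 42 of the 57 genes (73.7%) had a region in Nan/+ and 48 (84.2%) in WT. Over all protein-coding genes the shares were 29.0% in Nan/+ and 26.9% in WT, and over other genes no longer than the longest histone gene (37455 bp) 21.2% and 23.3%. The median histone gene was 487 bp long, against 17.4 kb over all protein-coding genes, and a short gene offers little room for a region. Among the 1378 other protein-coding genes of at most 1 kb, 1.96% had a region in Nan/+ and 1.74% in WT. The histone shares were thus above each of these backgrounds in both lists. With centres counted in the gene body alone, 28.1% of the histone genes had a region in Nan/+ and 29.8% in WT, against 23.5% and 18.1% of all genes. The genes are neighbours and often count the same region, so they are not independent.

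Both lists marked 38 histone genes, against 16.8% of all protein-coding genes. In Nan/+ alone a region was found at 4 genes, H4c18, H2ac24, H2ac10 and H3c8, or 7.02% of the histone genes, against a background of 12.2%. In WT alone it was found at 10 genes, H2bc13, H2ac13, H3c10, H4c11, H2ac15, H2bc15, H2ac22, H2bc22, H4c17 and H4c1, or 17.5%, against 10.1%. Among the widest 50% of each list, 38 genes were marked in Nan/+ and 37 in WT. Of the histone genes, 7 were then marked in Nan/+ alone and 6 in WT alone. That cut was made by rank and fell at unlike widths, the whole-list medians being 176 bp in Nan/+ and 396 bp in WT. Without Nan/+ regions of the minimum width, 4 genes were marked in Nan/+ alone and 14 in WT alone, so the order depended on the cut. Shares over all protein-coding genes were not computed at these width cuts, so no background stands beside these counts. With all regions counted, the remaining 5 genes, H2bc23, H2ac23, H3c14, H2bc1 and H2ac1, had a region in neither list. By class, H2A genes had a region at 12 of 17 in Nan/+ and 13 of 17 in WT, and H2B genes at 11 of 16 and 14 of 16. For H3 the count was 10 of 12 in each list, and for H4 it was 9 of 12 in Nan/+ and 11 of 12 in WT. No class was without EKLF regions, and the classes differed by a few genes.

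**Figure D1:**
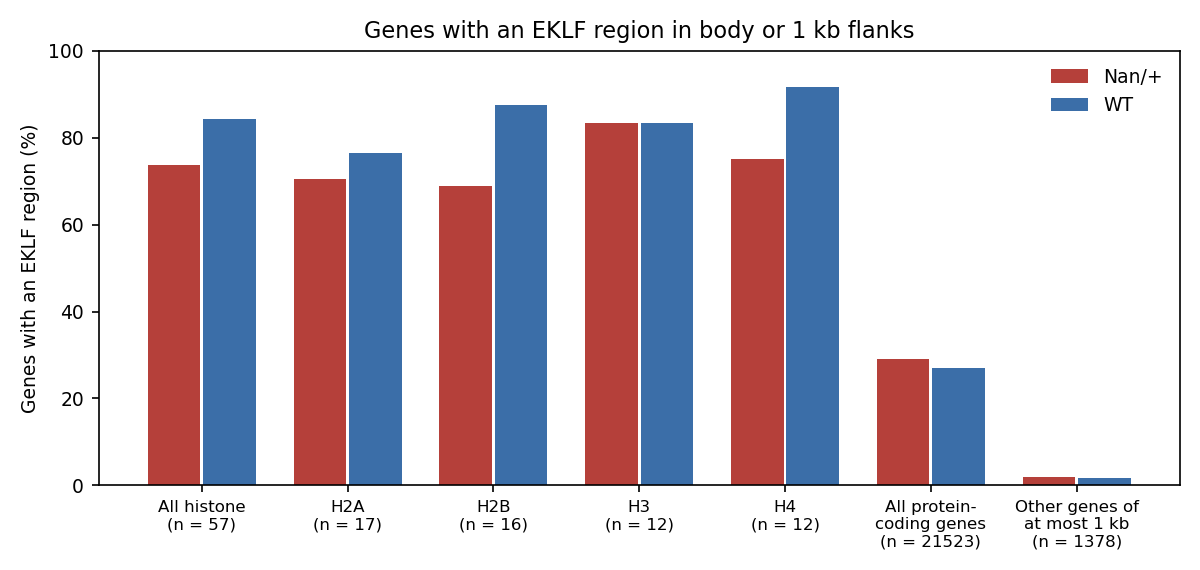
Percentage of genes with an EKLF region centred in the body or within 1 kb of either end, for Nan/+ (left bar) and WT (right bar). The histone classes stand between 68.8% and 91.7%, all protein-coding genes at 29.0% in Nan/+ and 26.9% in WT, and other genes of at most 1 kb at 1.96% and 1.74%; each bar is 1 list and has no error bar.

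Counted once each, 41 Nan/+ regions and 49 WT regions lay at histone genes, 0.263% of the Nan/+ list and 0.534% of the WT list. Of these, 16 Nan/+ regions and 19 WT regions belonged to more than 1 histone gene. The genes fall into a large group on chromosome 13 and a smaller one on chromosome 3. When genes over 100 kb apart were parted, a division made after the positions were seen, they formed 5 blocks. The block with the lowest coordinates on chromosome 13 (chr13:21715711-21833475) held 16 genes, of which 5 had a region in Nan/+ and 12 in WT. This block held 9 of the 10 genes marked in WT alone. The next block (chr13:22035122-22043658) held 5 genes, H2ac12, H2bc12, H4c9, H2ac11 and H2bc11, and all 5 had a region in both lists. In the largest block (chr13:23531044-23762386) 23 of 24 genes had a region in Nan/+ and 22 of 24 in WT. On chromosome 3 (chr3:96219885-96270192) 9 of 10 genes had a region in each list and the same 9 in both, the exception being H3c14. These last 3 blocks were marked almost completely in both lists, whereas the first was not; this difference was not tested.

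The fifth block held a single pair, H2bc1 and H2ac1 (chr13:23933725-23934913), also known as Th2b and Th2a, which encode the testis-specific forms of H2B and H2A. Neither list had a region at either gene. With genes parted into clusters at gaps over 500 kb, the density of regions was highest in the chromosome 3 cluster. It was 17.2 Nan/+ and 22.9 WT regions per 100 kb of that cluster and its 1 kb flanks. Across the 2 chromosome 13 clusters it was 3.33 Nan/+ and 4.55 WT regions per 100 kb in the first and 7.64 and 6.65 in the second. Both chromosome 13 clusters include long stretches between blocks, so this order depends on how the genes were parted. Density was not computed by block. All 9 Nan/+ and all 12 WT regions within the chromosome 3 cluster lay at core histone genes.

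**Figure D2:**
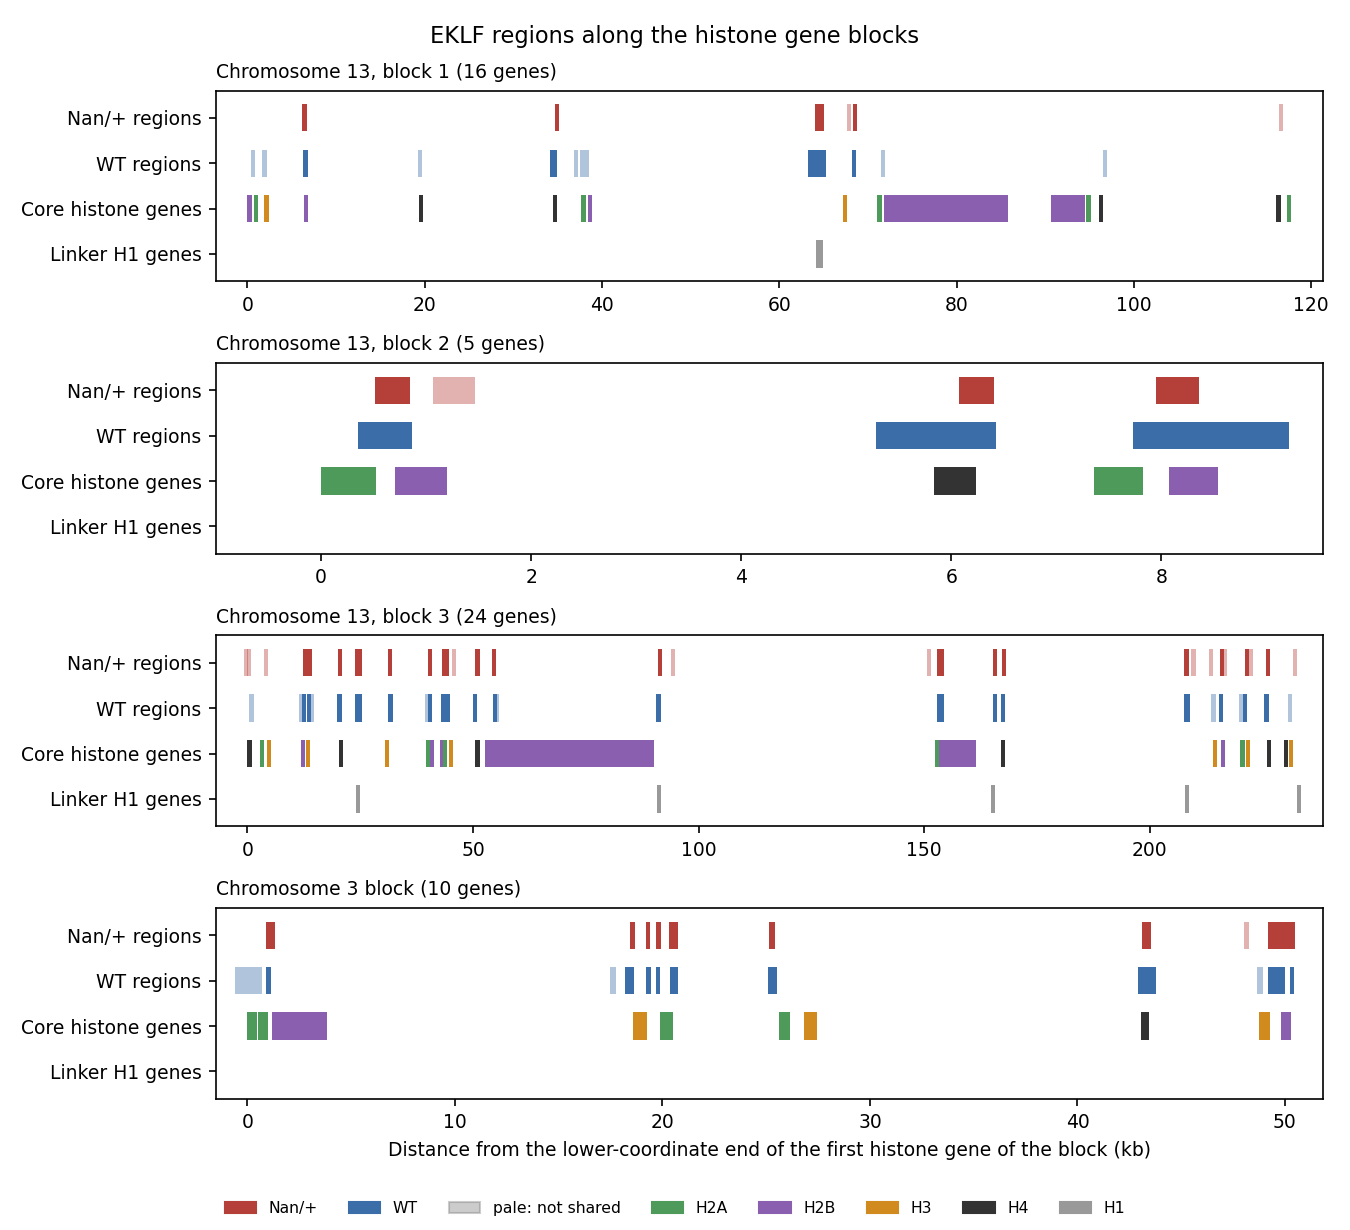
Maps of the 4 blocks with EKLF regions, with distance in kb from the lower-coordinate end of the first gene; rows show Nan/+ regions, WT regions, core histone genes coloured by class and linker H1 genes, pale regions overlap none in the other list, and short features are drawn at a minimum visible width. In the first block 12 of 16 core genes carry a WT region and 5 a Nan/+ region, whereas in the third nearly every gene carries both.

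The head-to-head H2A and H2B pairs show where the regions sat. Among 9 such pairs in which both starts were in the promoter table and lay within 1 kb of each other, a region covered the whole stretch between the starts at 3 pairs in Nan/+ and 6 in WT. The 3 pairs covered whole in both lists were H2ac12/H2bc12, H2ac8/H2bc8 and H2bc7/H2ac7. At H2ac12/H2bc12 the Nan/+ region measured 331 bp (chr13:22035637-22035967) and the WT region 514 bp (chr13:22035471-22035984). At H2ac8/H2bc8 they measured 601 bp in Nan/+ (chr13:23570963-23571563) and 574 bp in WT (chr13:23570986-23571559), one of the closest matches between the lists. At H2bc7/H2ac7 they measured 343 bp in Nan/+ (chr13:23574175-23574517) and 642 bp in WT (chr13:23573920-23574561). All 3 stretches between the starts, of 173 to 179 bp, were therefore inside a region in either genotype. At H2ac11/H2bc11 the Nan/+ region of 410 bp covered 126 of the 248 bp between the starts, and the WT region of 1487 bp, the widest WT region at any histone gene, covered all of them.

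At H2bc13/H2ac13 and H2ac15/H2bc15 no Nan/+ region reached the stretch, which was covered whole in WT, by regions of 344 bp (chr13:21716068-21716411) and 1013 bp (chr13:21753196-21754208). H2ac22/H2bc22 again had no Nan/+ region, and a WT region of 159 bp covered 97 of 239 bp. The pairs H2bc23/H2ac23 and H2bc1/H2ac1 had no region in either list. The promoter window of H2bc23 is 100% identical to that of H4bc24, a histone gene outside the rule. How reads from such copies were placed is not given, so the absence at H2bc23 is uncertain. The stretches between starts are printed below for the 3 pairs covered in both lists, the 2 covered in WT alone and 1 covered in neither, to show the promoter elements they hold. Sequences are from RefSeq on GRCm38.p6, plus strand, 5′ to 3′, and capitals mark the CCAAT box, bound by the factor NF-Y, and the octamer ATTTGCAT, bound by OCT1, on either strand.
H2ac12/H2bc12 (chr13:22035644-22035820, both lists): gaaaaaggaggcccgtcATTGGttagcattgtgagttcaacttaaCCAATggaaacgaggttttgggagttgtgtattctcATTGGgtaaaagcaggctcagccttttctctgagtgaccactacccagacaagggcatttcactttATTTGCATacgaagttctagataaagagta
H2ac8/H2bc8 (chr13:23571221-23571399, both lists): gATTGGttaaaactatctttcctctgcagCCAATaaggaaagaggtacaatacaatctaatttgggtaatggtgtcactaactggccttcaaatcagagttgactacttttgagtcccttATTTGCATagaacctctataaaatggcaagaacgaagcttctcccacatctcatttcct
H2bc7/H2ac7 (chr13:23574208-23574380, both lists): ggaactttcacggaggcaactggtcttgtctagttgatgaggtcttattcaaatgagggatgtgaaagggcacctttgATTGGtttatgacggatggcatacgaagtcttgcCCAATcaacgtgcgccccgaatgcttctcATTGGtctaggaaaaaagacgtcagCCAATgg
H2bc13/H2ac13 (chr13:21716184-21716411, WT alone): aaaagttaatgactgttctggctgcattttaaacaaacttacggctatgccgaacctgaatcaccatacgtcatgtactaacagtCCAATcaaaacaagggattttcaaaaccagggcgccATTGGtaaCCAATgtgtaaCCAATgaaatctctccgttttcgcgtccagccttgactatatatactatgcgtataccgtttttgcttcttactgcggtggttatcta
H2ac15/H2bc15 (chr13:21753913-21754075, WT alone): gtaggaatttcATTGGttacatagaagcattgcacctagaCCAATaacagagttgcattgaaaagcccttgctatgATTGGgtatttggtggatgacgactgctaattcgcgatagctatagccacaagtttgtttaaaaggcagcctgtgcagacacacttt
H2bc23/H2ac23 (chr13:21810200-21810366, neither list): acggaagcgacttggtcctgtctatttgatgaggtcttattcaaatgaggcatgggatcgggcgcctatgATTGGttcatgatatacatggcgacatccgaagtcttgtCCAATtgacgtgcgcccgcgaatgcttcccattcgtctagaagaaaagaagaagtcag

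Every one of these stretches holds CCAAT boxes, whether marked in both lists, in WT alone or in neither. Among the printed stretches the octamer in full is present in the first and second alone, 2 of the 3 covered in both lists. Of the pairs not printed, H2bc1/H2ac1 also holds it between its starts, with no region in either list. H2ac11/H2bc11 and H2ac22/H2bc22 do not hold it.

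The 12 H4 genes lie outside the head-to-head H2A and H2B pairs. Of the 11 H4 genes with a start in the promoter table, 8 had that start inside a Nan/+ region and 7 inside a WT region, 6 of them in both. These 6 were H4c12, H4c9, H4c6, H4c4, H4c3 and H4c2. At H4c4 the regions were wide in both lists, 973 bp in Nan/+ (chr13:23581513-23582485) and 1054 bp in WT (chr13:23580938-23581991). At H4c2 they were 753 bp in Nan/+ and 1107 bp in WT, and at H4c6 602 bp and 1003 bp. At H4c3 they were 367 bp in Nan/+ and 673 bp in WT, and at H4c9 331 bp and 1150 bp. H4c12 had 223 bp in Nan/+ and 796 bp in WT. At each of these 6 genes the WT region was the wider one, while the Nan/+ list was called with the larger minimum width. H4c14, on chromosome 3, had 454 bp in Nan/+ and 862 bp in WT, which overlapped.

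H4c8 was the H4 gene at which both lists had regions that did not overlap. A Nan/+ region of 365 bp (chr13:23530876-23531240) spanned its start and another of 323 bp lay upstream, whereas the WT region of 400 bp (chr13:23531476-23531875) began at the far end of the gene. H4c11 had no Nan/+ region and a WT region of 261 bp over its start. H4c1 had no Nan/+ region either, and its WT region of 913 bp lay upstream of the start and spanned the whole of the neighbouring H3c1. H4c17 and H4c18 have promoter windows with 99% identical bases. H4c18 had a Nan/+ region of 219 bp over its start (chr13:21832061-21832279) and no WT region, and H4c17 had no Nan/+ region and a WT region of 202 bp past its far end (chr13:21812176-21812377). How reads from such copies were placed is not given in the sources used here, so these regions are uncertain as to which copy they belong to.

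The 150 bases before the start are printed for 9 H4 genes, 7 with and 2 without a match to the letters of an EKLF site, because H4 was the class with the highest share of windows that held one. Each reads 5′ to 3′ in the direction of its gene (RefSeq, GRCm38.p6), and capitals mark matches to CCNCNCCC on either strand, the general form of the CACCC-type element that EKLF binds.
H4c9 (minus strand, start in a region in both lists): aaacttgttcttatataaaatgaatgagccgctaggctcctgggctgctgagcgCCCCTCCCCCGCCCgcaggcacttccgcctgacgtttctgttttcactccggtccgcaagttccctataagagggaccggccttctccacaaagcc
H4c3 (minus strand, both lists): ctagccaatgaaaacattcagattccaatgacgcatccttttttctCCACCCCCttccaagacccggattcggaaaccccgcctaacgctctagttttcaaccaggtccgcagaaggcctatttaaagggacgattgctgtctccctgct
H4c2 (plus strand, both lists): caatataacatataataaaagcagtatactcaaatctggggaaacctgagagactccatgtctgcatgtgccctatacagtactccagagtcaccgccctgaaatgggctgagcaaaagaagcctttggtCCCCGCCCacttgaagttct
H4c12 (minus strand, both lists): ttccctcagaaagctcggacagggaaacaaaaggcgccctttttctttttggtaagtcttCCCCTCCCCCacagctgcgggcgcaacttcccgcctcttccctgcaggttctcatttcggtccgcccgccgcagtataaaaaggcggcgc
H4c6 (minus strand, both lists, no match): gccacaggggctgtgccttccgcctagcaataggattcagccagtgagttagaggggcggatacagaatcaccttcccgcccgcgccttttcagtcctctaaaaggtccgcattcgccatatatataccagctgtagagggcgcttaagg
H4c4 (plus strand, both lists, no match): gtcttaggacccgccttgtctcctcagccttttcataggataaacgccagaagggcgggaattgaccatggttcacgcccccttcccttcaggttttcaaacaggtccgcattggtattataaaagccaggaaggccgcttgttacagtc
H4c11 (plus strand, WT alone): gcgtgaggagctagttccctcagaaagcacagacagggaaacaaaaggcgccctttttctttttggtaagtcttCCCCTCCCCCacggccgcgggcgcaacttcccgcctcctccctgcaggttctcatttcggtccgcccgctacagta
H4c18 (minus strand, Nan/+ alone): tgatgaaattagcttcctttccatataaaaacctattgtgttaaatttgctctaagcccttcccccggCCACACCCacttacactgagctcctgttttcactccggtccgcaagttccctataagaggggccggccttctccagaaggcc
H4c17 (plus strand, start in neither list): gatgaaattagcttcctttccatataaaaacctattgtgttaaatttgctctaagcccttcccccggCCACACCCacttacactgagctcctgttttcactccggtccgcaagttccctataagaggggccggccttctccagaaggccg

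Of the 6 H4 genes with the start inside a region in both lists, H4c6 and H4c4 held no match in their windows. H4c12 and H4c11 share the same marked run, and H4c18 and H4c17 share theirs, although the lists differ between the members of each pair of genes. The promoter windows of H4c11 and H4c12 are 87.6% identical. How reads from these similar copies were placed is not given, so the contrast between H4c11 and H4c12 is uncertain too. A match describes the letters of the window and is not evidence of a bound site.

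H3 genes of both protein forms were marked. Of the 4 genes for H3.1, 3 had a region in Nan/+ (H3c1, H3c8 and H3c11) and 3 in WT (H3c1, H3c10 and H3c11). Of the 8 genes for H3.2, 7 had a region in Nan/+ and the same 7 in WT. At H3c6 the Nan/+ region of 497 bp (chr13:23562165-23562661) and the WT region of 305 bp (chr13:23562277-23562581) both spanned the start. At H3c2 a Nan/+ region of 335 bp (chr13:23752135-23752469) overlapped a WT region of 800 bp (chr13:23751652-23752451). At H3c3 and H3c1 the lists named different positions. H3c3 had a Nan/+ region of 176 bp beyond its far end (chr13:23744107-23744282) and a WT region of 884 bp (chr13:23744665-23745548) over its body and start. H3c1 had a Nan/+ region of 176 bp in its flank (chr13:23762829-23763004) and shared the 913 bp WT region (chr13:23761578-23762490) with H4c1. Both of these Nan/+ regions had the minimum width.

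On chromosome 3, H3c15 had 3 Nan/+ and 4 WT regions and its neighbour H2ac19 had 3 in each list. The most densely marked stretch was this pair, where 4 Nan/+ regions, at chr3:96238341-96238559, chr3:96239089-96239264, chr3:96239576-96239795 and chr3:96240220-96240642, each overlapped a WT region. H3c14, with a promoter window 90.2% identical to that of H3c15, had no region in either list. How reads from such similar copies were placed is not given here either, so the contrast between these 2 genes is uncertain. H2ac18, which lies beside H3c14, had 1 region in each list, 282 bp in Nan/+ (chr3:96245005-96245286) and 400 bp in WT (chr3:96244985-96245384), ahead of its start. The sequences before the starts of H2ac18 and H2ac19 share a long identical run, so the placement of regions there is uncertain too. The widest Nan/+ region at any histone gene, 1312 bp (chr3:96269066-96270377), ran from H3c13 across H2bc18, and 2 WT regions of 852 bp and 201 bp overlapped it.

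Among the other H2A and H2B genes, H2bc14 had a region of 581 bp in Nan/+ and 602 bp in WT over its start. H2ac6 had one of 520 bp in Nan/+ (chr13:23683773-23684292) and 541 bp in WT (chr13:23683790-23684330). At H2bc3 the regions were 373 bp in Nan/+ and 558 bp in WT. These 3 genes show the common form of a region over the start in both lists. H2ac10 had 1 Nan/+ region of 232 bp (chr13:23534661-23534892) that it shares with H3c8, lying between these genes and over no start, and neither gene had a WT region. H2bc9 had a region over its start of 226 bp in Nan/+ and 362 bp in WT, and a second WT region of 562 bp in its body and flank. H3c7 had 2 regions in Nan/+ and 3 in WT, and H3c4 2 in Nan/+ and 1 in WT, of 976 bp, which covered its start. No Nan/+ region reached the start of H2ac4, which lay in a WT region of 481 bp. On chromosome 3 the neighbours H2ac21, H2ac20 and H2bc21 shared 1 region in each list, of 459 bp in Nan/+ (chr3:96220776-96221234) and 270 bp in WT (chr3:96220769-96221038), which spanned the start of H2ac20. A further WT region of 1297 bp spanned the start of H2ac21. H2bc6 is annotated as 37455 bp long with 2 starts, and had 1 region in Nan/+, of 176 bp, and 3 in WT. The one at chr13:23621500-23622636 covers the neighbouring linker histone gene H1f4, and a Nan/+ region that overlaps it fell just outside the 1 kb limit for H2bc6.

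Over the 52 histone genes with a start in the promoter table, 26 starts (50.0%) lay inside a Nan/+ region and 36 (69.2%) inside a WT region. For all 17274 protein-coding genes in that table the shares were 10.3% in Nan/+ and 18.2% in WT. Both lists covered 23 of the histone starts, Nan/+ alone 3 (H3c11, H4c18 and H4c8), WT alone 13 and neither 13. By class, starts inside a region numbered 6 of 17 for H2A in Nan/+ and 11 of 17 in WT, and 8 of 14 and 11 of 14 for H2B. For H3 they numbered 4 of 10 in Nan/+ and 7 of 10 in WT. H4 was the one class with more starts inside Nan/+ regions (8 of 11) than inside WT regions (7 of 11), by a single gene. The entries H2bc21, H2bc4, H3c1, H3c7 and H4c14 were not matched in the promoter table.

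Coverage peaked 25 bp before the start, where 49.1% of 53 histone starts had a Nan/+ region and 69.8% a WT region. At 300 bp into the gene the shares were 9.43% in Nan/+ and 24.5% in WT. At 500 bp, near the end of a histone gene of median length, they were 13.2% and 34.0%, and at 600 bp 18.9% and 32.1%, above the level at 300 bp in both lists. Over all protein-coding starts the shares at 600 bp were 1.22% in Nan/+ and 2.41% in WT, below their level at 300 bp (2.77% and 6.40%). A protein-coding gene of median length (17.4 kb) still continues at 600 bp, so the 2 sets differ in what lies there. Any region at a position was counted, including regions of neighbouring histone genes, and these were not told apart. Upstream, the Nan/+ share was 7.55% at 500 bp before the start and 17.0% at 650 bp before it, so that the lower rise in Nan/+ stood on both sides of the start. The WT share was 24.5% and 18.9% at these positions.

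**Figure D3:**
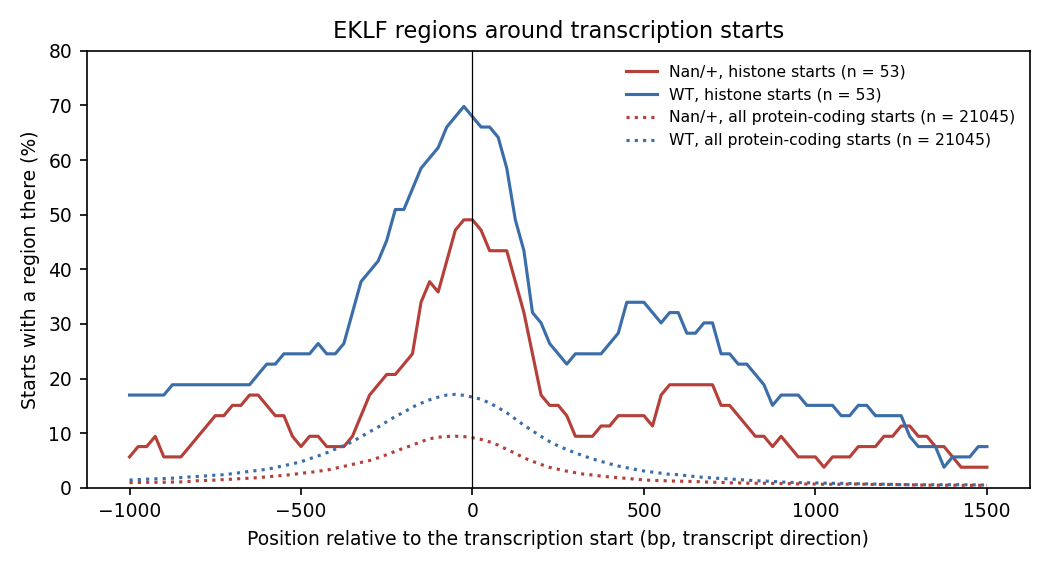
Percentage of transcription starts with an EKLF region at each position, in bp from the start in the direction of transcription, for histone genes (solid) and all protein-coding genes (dotted). The histone curves peak 25 bp before the start at 49.1% in Nan/+ and 69.8% in WT and stand again above their level at 300 bp from about the end of the gene, while the curves for all genes peak at 9.45% and 17.1%. Regions of neighbouring genes are counted too.

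The positions coincided between the lists more than over the lists as a whole. Of the 41 Nan/+ regions at histone genes 29 overlapped a WT region by at least 1 bp, or 70.7% (exact Clopper-Pearson 95% interval 54.5 to 83.9), against 14.7% of the whole Nan/+ list. Of the 49 WT regions 31 overlapped a Nan/+ region, or 63.3% (48.3 to 76.6), against 24.5% of the whole WT list. These intervals cover counting error only. Regions over gene starts coincided more often in general. Among regions over a histone start, 20 of 23 in Nan/+ were shared (87.0%, interval 66.4 to 97.2) and 21 of 31 in WT (67.7%, 48.6 to 83.3). Among regions over the start of another protein-coding gene the shares were 62.6% in Nan/+ (60.2 to 65.0) and 40.5% in WT (38.7 to 42.3). In each list the share at histone starts was above that at other starts, and the interval did not reach it; the difference was not tested, since clustered regions are not independent.

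Shared regions were the wider ones. In Nan/+ the median width was 367 bp for shared regions and 197.5 bp for the others, and in WT it was 574 bp and 372 bp. Wide regions overlap more readily, so the overlap rule favours this order. Over all regions at histone genes the median was 331 bp in Nan/+, with a range of 176 to 1312 bp, and 514 bp in WT, with a range of 126 to 1487 bp. The medians of the whole lists were 176 bp in Nan/+ and 396 bp in WT. Of the Nan/+ regions at histone genes, 10 of 41 (24.4%) had the minimum width, against 54.5% of the Nan/+ list. Regions at histone genes were therefore wider than the typical region of their list in both genotypes. Set beside regions over other starts, those over histone starts had the larger median width in WT and not in Nan/+. Regions over histone starts had a median of 373 bp in Nan/+ and 602 bp in WT, against 403 bp and 527 bp over other starts.

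**Figure D4:**
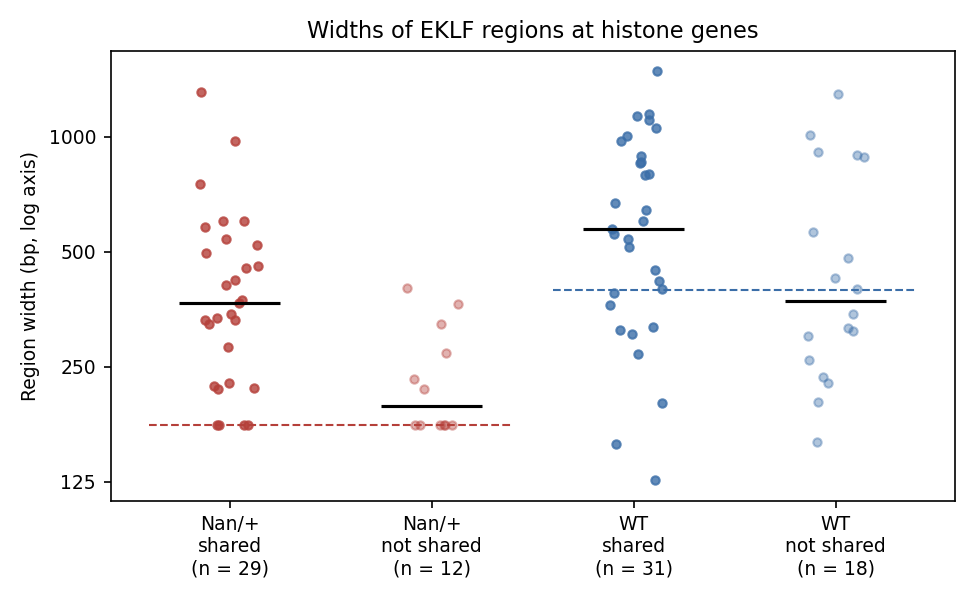
Width of each EKLF region at a histone gene in bp (log axis), by list and by overlap with the other list; points are regions, black lines their medians and dashed lines the median of the whole list. Shared regions have medians of 367 bp in Nan/+ and 574 bp in WT, and the others 197.5 bp and 372 bp.

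Promoter sequence was examined in windows from 250 bases before to 50 after the start, 53 windows for 52 histone genes, with matches counted on both strands. The CCAAT box was found in all 17 H2A, all 15 H2B and all 10 H3 windows, and in 3 of 11 H4 windows. In total 45 of 53 histone windows (84.9%) held it, against 38.5% of 21045 windows of protein-coding genes. TATAAA, the core of the TATA box that positions RNA polymerase II, was found in 30 windows (56.6%), against 12.7%. These matches lay anywhere in the window, for example at -212 in H2bc22 and 41 in H4c1, counted in bases from the start. A match therefore need not be the TATA box of that gene. The octamer ATTTGCAT was found in 7 of 15 H2B windows and 6 of 17 H2A windows, in no H3 or H4 window, and in 1.68% of all windows. Paired genes share part of their windows, so an octamer can be counted in both. The letters CCNCNCCC were found in 21 of 53 histone windows (39.6%), below the 57.1% of all windows. H4 windows held them in 9 of 11 cases, H2A in 7 of 17, H3 in 3 of 10 and H2B in 2 of 15. CCNNGCCC, a form close to those reported for the Nan protein, was found in 12 windows (22.6%), against 48.6% of all windows, and 8 histone windows held both forms, which can overlap. The median GC content was 45.0% in histone windows and 56.7% in all windows, and matches to either form depend on it.

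Matches to CCNCNCCC did not part the windows by what the lists showed. Windows were classed by gene, so both windows of H2bc6 counted under WT alone, although its start at chr13:23621094 lay in no region. Matches were found in 9 of 23 windows of genes with a start inside a region in both lists. The counts were 2 of 3 for Nan/+ alone, 5 of 14 for WT alone and 5 of 13 for neither. CCNNGCCC was found in 8 of 23, 1 of 3, 0 of 14 and 3 of 13 windows in the same order, and the octamer in 9 of 23, 0 of 3, 2 of 14 and 2 of 13. CCAAT boxes stood in 19 of 23 windows marked in both lists and in 12 of 13 marked in neither. A region over a histone start was thus often found where the window held no match to CCNCNCCC. No match says only that these letters are not in that window.

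**Figure D5:**
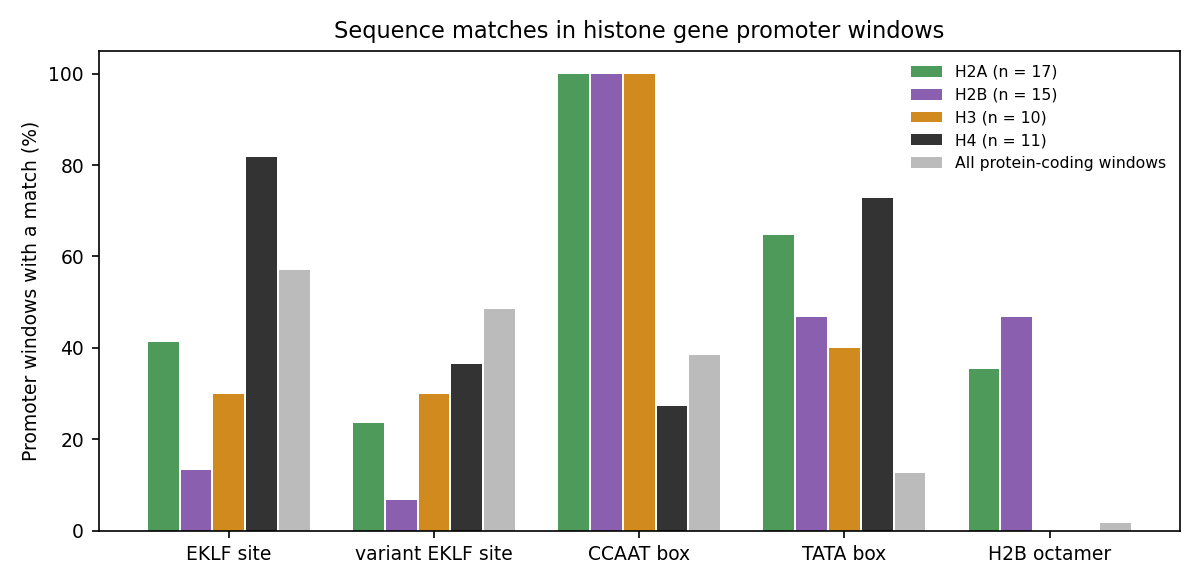
Percentage of promoter windows with at least 1 match on either strand, for the EKLF site CCNCNCCC, its variant CCNNGCCC, the CCAAT box, TATAAA and the octamer, by histone class (coloured) and over all protein-coding windows (grey). All H2A, H2B and H3 windows hold a CCAAT box, and 9 of 11 H4 windows hold the EKLF letters.

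Linker histone H1 genes lie among the core genes on chromosome 13 and carry current symbols outside the rule. All 6 had a region in Nan/+ and 5 of 6 in WT, H1f1 being the exception, against 29.0% and 26.9% of all genes and 1.96% and 1.74% of other genes of at most 1 kb. H1f3 had a region of 1521 bp in Nan/+ (chr13:23554883-23556403) and 1673 bp in WT (chr13:23554837-23556509). H1f5 had 1040 bp in Nan/+ (chr13:21779691-21780730) and 2099 bp in WT (chr13:21778904-21781002). At H1f2 the widest was 1143 bp in Nan/+ and 1448 bp in WT, and at H1f4 627 bp and 1137 bp. The testis-specific H1f6 had 302 bp in Nan/+ and 199 bp in WT. H1f1 had 2 Nan/+ regions of the minimum width, one of them also assigned to H3c1, and no WT region. The regions at H1f3, H1f5 and H1f2 spanned the whole gene in both lists.

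Replacement variants can also be made outside S phase, mostly from ordinary polyadenylated transcripts. Of 9 such genes matched, 3 had a region in Nan/+ and 6 in WT. H3f3a, one of the H3.3 genes, had 1 in Nan/+ and 3 in WT, and H2az1, encoding H2A.Z, had 4 in Nan/+ and 2 in WT. H2aj had 1 in each, at different positions. H3f3b, Cenpa, the centromeric H3, and H2ax, the variant phosphorylated at DNA breaks, had 0 in Nan/+ and 1, 1 and 2 in WT, and H2az2, H1f0 and H1f10 had 0 in both. The background over all genes was 29.0% in Nan/+, close to the 3 of 9 found there, and 26.9% in WT, below the 6 of 9 found there.

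Of 15 genes matched for factors that transcribe and process histone RNA, 6 had a region in Nan/+ and 9 in WT, against 29.0% and 26.9% of all genes. Regions in both lists were found at 2 of them, Pou2f1, which encodes OCT1, and E2f4. None of the 12 Nan/+ and 14 WT regions at these genes overlapped between the lists, where 14.7% of the whole Nan/+ list and 24.5% of the whole WT list did; with so few regions little can be read from this. Npat, the S-phase coactivator of histone genes, had no Nan/+ region and a WT region of 654 bp. Slbp, which encodes the stem-loop binding protein, had none in Nan/+ and one of 898 bp in WT. Casp8ap2, which encodes FLASH, and Lsm11 had none in Nan/+ and regions of 573 bp and 865 bp in WT. Lsm10, Cpsf3 and Ncbp2 had 0 in Nan/+ and 2, 1 and 1 in WT. Ncbp1, Cpsf2, Zfp473 and Cstf2 had 3, 2, 2 and 1 in Nan/+ and 0 in WT, while Srrt and Eri1 had 0 in both. A region was found in Nan/+ alone at 4 of these genes, against 12.2% of all genes, and in WT alone at 7, against 10.1%.

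Histone chaperones, which carry histones to DNA, were marked at 14 of 19 genes in Nan/+ and 12 of 19 in WT, 11 of them in both, against 29.0%, 26.9% and 16.8% of all genes. Chaf1a and Chaf1b, subunits of the replication-coupled assembly factor CAF-1, each had 1 region in each list, which overlapped, with 238 bp in Nan/+ and 734 bp in WT at Chaf1a and 617 bp and 428 bp at Chaf1b. Asf1a, an H3-H4 chaperone, had 520 bp in Nan/+ and 564 bp in WT, also overlapping, while its relative Asf1b had no region. Mcm2, a helicase subunit that binds histones at the fork, had 540 bp in Nan/+ and 353 bp in WT. Daxx, Ubn1, Nap1l4 and Rbbp7 also had regions that overlapped between the lists, whereas Hira, Cabin1 and Rbbp4 had regions in both lists at different positions. Atrx had 1 region in Nan/+ and 0 in WT. Ssrp1 had 0 regions in Nan/+ and 2 in WT, and Supt16, the other FACT subunit, had 1 of the minimum width in Nan/+ and 0 in WT. Hat1, an acetyltransferase for new H4, had 2 in Nan/+ and 0 in WT, and Nasp, Nap1l1 and Ipo4 had 0 in both. Several of these genes are far longer than a core histone gene, so their shares are not set beside those of the histone genes.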

How the data were processed

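The score column of the 2 deposited BED lists holds the value 1 in every row, so positions and widths alone were used. Per the file headers, the authors called each list with HOMER on mm10 (-q 0.01, -f 4) and ran DESeq2 within it, with -size 175 and -minDist 300 for Nan/+ but -size 125 and -minDist 250 for WT. In each list 2 input libraries filled 3 places. Versions given in the submitters' processing notes are 2.17 for bcl2fastq, 2.1 for Bowtie2, 1.1 for SAMtools and 3.5 for deepTools. Of 21900 protein-coding genes, 377 were not used (Y, mitochondrial, unplaced or alternate-locus entries). Promoter windows came from RefSeq (GRCm38.p6). Regions were assigned and counted with Python 3.11.15, pandas 2.3.3 and SciPy 1.17.1, and promoter windows aligned with Biopython 1.88; assignment was tested on planted regions. Coordinates are mm10, counted from 1. The histone genes and gene lists were chosen with earlier results of these data known. Named genes are all histone genes with a region and, of the 4 related lists, those with a region and up to 4 without; 49 of 54 list entries matched by symbol (H3f5, macroH2A1, macroH2A2, Mizf and Symk did not). The comparison with genes of at most 1 kb, the regions over other starts and the 5 blocks were added after the values were seen. Alternatives varied the flank, the assignment, the width and the overlap. 1 further erythroid gene of the tissue check is not reported here. The other assays of the series were not analysed here.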

Additional observations from a re-analysis of the deposited data

How the results depend on the processing

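Of 66 alternative values, 48 stayed within 1.5 times of the reported count, or inside the interval of the reported share. With centres inside the gene body alone, as few as 375 bp, marked genes numbered 16 in Nan/+, 17 in WT and 10 in both, and regions 16 and 19, fewer by construction; over all protein-coding genes the shares were then 23.5% and 18.1%, against histone shares of 28.1% and 29.8%. With flanks of 5 kb, 49 genes were marked in Nan/+ and 53 in WT, against 33.5% and 30.1% of all protein-coding genes. With 10 kb they numbered 51 and 53, against 37.5% and 33.5%. With flanks of 5 kb, 2 genes were marked in Nan/+ alone and 6 in WT alone, and with 10 kb 2 and 4. Shares of all genes marked in a single list were not computed for these flanks. No shares of all genes were computed for the width cuts below. With the widest 50% of each list, WT regions numbered 31, 38 genes were marked in Nan/+ and 37 in WT, and 7 genes were marked in Nan/+ alone and 6 in WT alone. A reciprocal overlap of 50% lowered the shared percentage to 46.3 in Nan/+ and 40.8 in WT, centres within 250 bp to 51.2 and 42.9, and a gap of up to 1 kb raised it to 95.1 and 85.7. The shares of the whole lists under these other overlap rules were not computed, so no background stands beside these values. Without Nan/+ regions of the minimum width, 38 genes were marked in Nan/+ and 14 in WT alone. No paired analysis was possible because the 3 libraries of a genotype were merged into a single list, and no replicate could be left out. The lists give no tag counts, so weak binding and no binding look alike.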

Other observations

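A further 4 core histone genes carry an older Hist symbol and a current symbol outside the rule. H4f16 (Hist4h4) on chromosome 6 had a region of 476 bp in Nan/+ that overlapped one of 733 bp in WT. H2aw (Hist3h2a) on chromosome 11 had 2 regions in Nan/+, 286 bp and 673 bp, and 1 in WT, 620 bp, and its neighbour H2bu2 (Hist3h2ba) had 0 in both. H4bc24 (Hist1h2br) had 0 in both, and its promoter window was 100% identical to that of H2bc23, which also had 0 in both. With these 4 genes and the 6 linker H1 genes added, a set chosen after the values were seen, 50 of 67 genes had a region in Nan/+ and 55 in WT.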
